A study of Mus musculus with 8 samples.

Results

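The genes described here are 8 transcriptional regulators of the circadian clock. Among them are the Rev-erb repressors *Nr1d1* and *Nr1d2*, the activator *Rora*, the repressor *Nfil3*, and *Ciart*. The others are the proline and acidic amino acid-rich basic leucine zipper (PAR bZIP) activators *Dbp*, *Tef* and *Hlf*. The 8 genes were chosen by name from the 17500 genes of the deposited table, and all 8 were found and passed the filter on low counts. Whole retinas of 4 *Rbfox2*-/- mice (labelled Rbfox2 KD, with the numbers M909, M902, M901 and M893) and of 4 controls (M898, M896, M894 and M833) were sequenced after poly(A) selection, each mouse giving 1 library. All mice were 6 months old with a C57BL/6J strain background. The *Rbfox2*-/- animals were homozygous *Rbfox2* fl/fl mice with a Cre recombinase that tamoxifen had activated 4 months earlier, and the deletion was not limited to the retina or to 1 cell type. The controls were age-matched heterozygous *Rbfox2* fl/+ mice, which carry 1 floxed allele themselves. The labels give the tamoxifen protocol for every sample, whereas the study's methods give it for the knockouts, and the Cre status of the controls is not stated in the sources used here. Loss of *Rbfox2*, the Cre transgene and tamoxifen therefore cannot be told apart. The retinas were dissected at 1 time of day, in the morning, so that a change in the level of a rhythmic transcript and a shift of its phase cannot be told apart either.

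The mammalian clock is a feedback loop in which CLOCK and BMAL1 (encoded by *Arntl*) bind E-boxes and activate *Per*, *Cry* and many other genes, whose products then repress the activators. In an auxiliary loop, REV-ERB proteins repress and ROR proteins activate genes with a ROR response element (RORE), among them *Arntl*, while the PAR bZIP factors activate and NFIL3 represses genes with a D-box. CIART, also called CHRONO, represses transcription driven by CLOCK and BMAL1, and its own gene is a target of the same E-boxes. The retina holds a clock of its own, which times dopamine release, photoreceptor metabolism and visual sensitivity over the day.

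Promoters were searched for the binding elements of these loops, since most of the 8 genes are regulated by other clock factors. RefSeq windows on GRCm38.p6, 300 bases long and reaching from 250 bases before to 50 bases after each annotated start, were given for all 8 genes, with 9 windows because *Tef* has a pair of starts. Both strands were read for the E-box CACGTG, the D-box TTATGTAA or TTACGTAA, the RORE core TAGGTCA or TGGGTCA, and the cAMP response element TGACGTCA, and no match overlapped another. *Ciart*, the gene with the largest difference between the groups described here, held 3 E-boxes, which began 116, 58 and 44 bases before the start. Of all 32851 windows, 7.15% held at least 1 E-box and 0.0883%, which is 29 windows, held at least 3. Both *Tef* windows held 1 E-box each. The 250 bases before the start of *Ciart* (chr3:95882229-95882478, minus strand) and of the *Tef* starts (chr15:81802423-81802672 and chr15:81811164-81811413, plus strand) are shown in the direction of the gene with the E-boxes in capitals.
Ciart: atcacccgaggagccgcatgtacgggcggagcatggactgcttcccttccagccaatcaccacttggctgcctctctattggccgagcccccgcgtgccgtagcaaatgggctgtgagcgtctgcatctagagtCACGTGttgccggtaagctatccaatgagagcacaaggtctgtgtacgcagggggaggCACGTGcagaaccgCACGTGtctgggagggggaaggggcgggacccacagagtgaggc
Tef, first start: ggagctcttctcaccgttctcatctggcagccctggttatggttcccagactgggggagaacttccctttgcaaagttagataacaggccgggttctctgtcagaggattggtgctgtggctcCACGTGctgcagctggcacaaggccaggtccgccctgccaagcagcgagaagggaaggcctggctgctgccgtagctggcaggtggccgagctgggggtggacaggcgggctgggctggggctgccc
Tef, second start: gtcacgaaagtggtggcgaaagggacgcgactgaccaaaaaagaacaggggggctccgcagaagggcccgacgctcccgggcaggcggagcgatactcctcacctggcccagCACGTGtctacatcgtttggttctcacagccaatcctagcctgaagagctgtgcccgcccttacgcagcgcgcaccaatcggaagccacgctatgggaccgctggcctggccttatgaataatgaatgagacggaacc

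The *Hlf* window held 1 cAMP response element and the *Nfil3* window 1 RORE core, read on the strand opposite to the gene. They are shown in capitals within short stretches (chr11:90390908-90390937 and chr13:52981034-52981062, both minus strand), as the only matches other than E-boxes.
Hlf: ggtgcgggcccTGACGTCActcttgtcagg
Nfil3: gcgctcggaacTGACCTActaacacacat

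Over all windows, 1.79% held the cAMP response element, 6.45% an RORE core and 1.06% a D-box. The windows of *Dbp*, *Nr1d1*, *Nr1d2* and *Rora* held none of these letters, and no window of the 8 genes held a D-box. These matches describe the letters of 1 window per start and do not show a bound site, and elements outside the windows were not searched.

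The 4 control libraries held 174224661 to 211283591 counts on genes and the 4 *Rbfox2*-/- libraries 160630226 to 195100610. *Rbfox2* was at 53.6 to 59.4 CPM (counts scaled to a common, normalized library size) in the *Rbfox2*-/- retinas and at 144 to 157 CPM in the controls, so the libraries matched their labels. M901 and M902 stood apart from all other libraries, with 277506 and 275967 *Xist* counts against 312 to 426 and with 29 and 33 counts of *Best2*, a ciliary body gene, against 749 to 2840. They were apart from the others on the first principal component (50.03% of the variance), and M909 was on the next one (18.7%). *Xist* is a transcript of female cells, so by this gene M901 and M902 were female and the other mice male. No control was female by *Xist*, so sex is partly tied to genotype in these groups. The retinal identity of the tissue was seen in all libraries from 53270 to 60190 CPM summed over 4 rod markers, none of which was at 0. In bulk tissue, fewer cells of a type and less RNA per cell cannot be told apart.

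None of the 8 genes passed an adjusted p (false discovery rate, FDR) of 0.05 between *Rbfox2*-/- and control retinas in the quasi-likelihood test of edgeR, adjusted by Benjamini-Hochberg over all 16797 genes tested, of which 0.0655% passed. At an unadjusted p under 0.05, 4 of the 8 were lower in *Rbfox2*-/- retinas (*Ciart*, *Dbp*, *Tef* and *Hlf*) and 0 were higher, where 6.87% of all genes tested were lower and 6.42% higher. The same 4 to 0 split was found with DESeq2, with edgeR's likelihood ratio test and with limma-voom. With 1 mouse left out, between 2 genes (without M898) and 5 (without M894) were lower, with 3 each without M833, M896, M901 or M909. The FDR of 1 gene, *Ciart*, was under 0.05 by DESeq2 and by the likelihood ratio test, and limma-voom called 0. The fitted log2 fold change was negative, meaning lower in *Rbfox2*-/- retinas, in 7 of the 8 genes, with a median of -0.11 against 0.0016 over all genes tested. All *Rbfox2*-/- retinas lay below all controls in 1 of the 8 genes, where this held for 3.39% of all genes tested, and in none did they lie above all controls, which held for 3.64%.

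**Figure D1:**
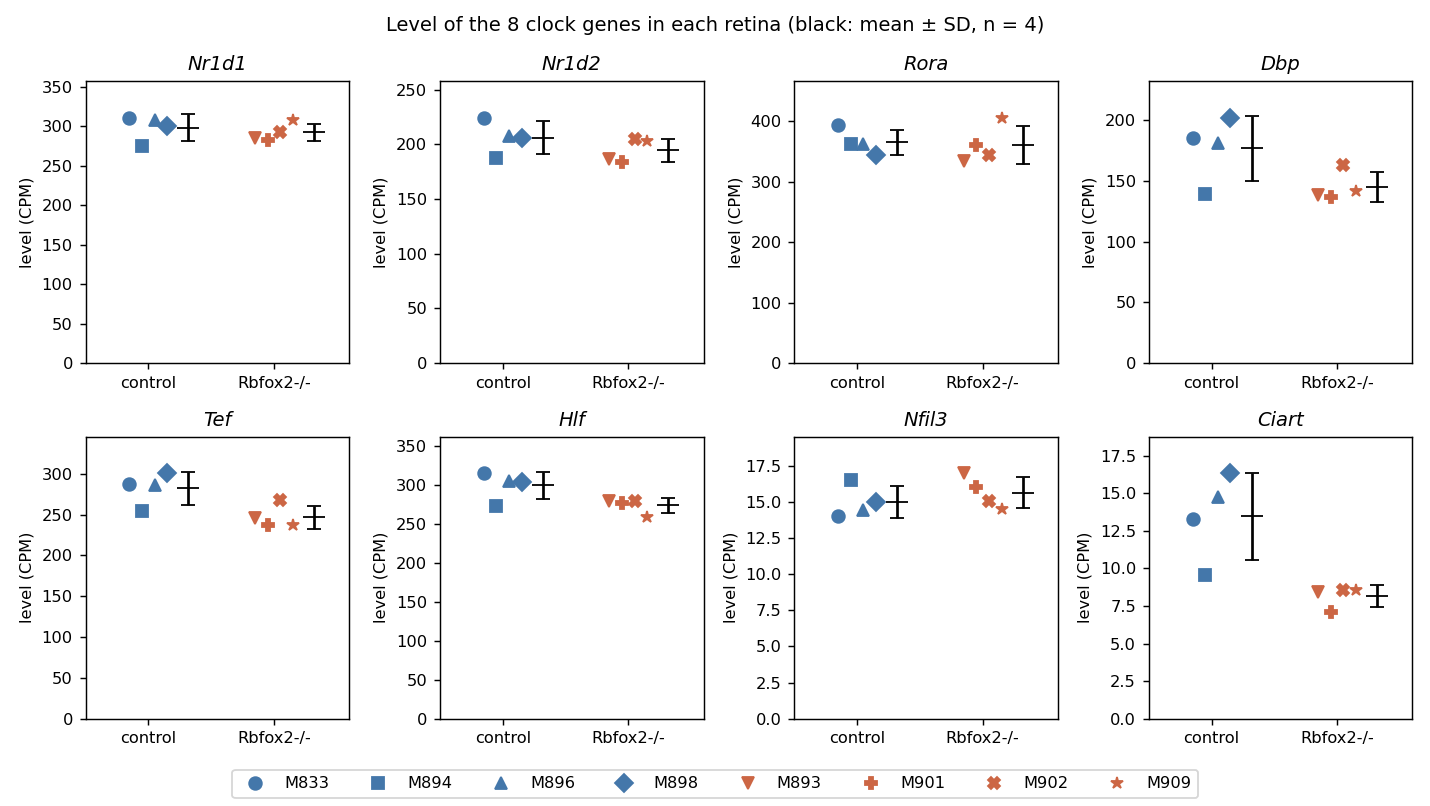
Level of each gene in CPM (vertical axes, starting at 0) in the 4 control and 4 *Rbfox2*-/- retinas, 1 symbol per mouse, with the mean and SD of each group in black. In *Ciart* all *Rbfox2*-/- retinas lie below all controls, and in the other 7 genes the groups overlap.

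*Ciart* (GRCm38 chromosome 3, 95878503 to 95882251, minus strand), the repressor of CLOCK and BMAL1 whose window held the 3 E-boxes, was at 13.3 CPM in M833, 9.55 in M894, 14.7 in M896 and 16.3 in M898 among the controls. It was at 8.59 CPM in M909, 8.55 in M902, 7.09 in M901 and 8.45 in M893. The groups did not overlap, although control M894 was closer to the *Rbfox2*-/- retinas than to the other controls, and the *Rbfox2*-/- retinas other than M901 were nearly level. The mean was 13.5 ± 2.90 CPM (SD, n = 4) in controls and 8.17 ± 0.722 CPM (SD, n = 4) in *Rbfox2*-/- retinas, 60.6% of the control level in the fit. The log2 fold change was -0.72 (standard error 0.14, 95% interval -1.045 to -0.40) and the adjusted p was 0.116 in edgeR's quasi-likelihood fit. An exact permutation test of the mean CPM gave a two-sided p of 0.0286, the smallest that the 70 groupings of 4 against 4 mice allow. The call depended on 1 control and on the test, since the adjusted p was 0.0199 without M894 (log2 fold change -0.86, edgeR), 6.78e-05 with DESeq2, 0.00189 with edgeR's likelihood ratio test and 0.151 with limma-voom. Without M901 and M902 the log2 fold change was -0.67, with 2 *Rbfox2*-/- retinas left (adjusted p = 0.606 by the same edgeR test).

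The PAR bZIP activators bind D-boxes as dimers and carry the rhythm of the clock to genes of metabolism and detoxification. *Dbp* (chromosome 7, 45705088 to 45710203, plus strand), known for one of the widest daily swings among clock outputs, was at 185 CPM in M833, 139.4 in M894, 181 in M896 and 202 in M898. It was at 142 CPM in M909, 164 in M902, 137 in M901 and 138.9 in M893. M894 lay among the *Rbfox2*-/- retinas, and M902 was the *Rbfox2*-/- retina nearest to the other controls. The mean was 177 ± 26.7 CPM (SD, n = 4) in controls and 145 ± 12.4 CPM (SD, n = 4) in *Rbfox2*-/- retinas. The log2 fold change of *Dbp* was -0.29 (standard error 0.10, 95% interval -0.51 to -0.06) and its adjusted p was 0.296 in edgeR's quasi-likelihood fit. With 539 of its 2993 annotated exon bases (18.0%) overlapped on the other strand by *Sphk2*, a lipid kinase gene looked up after the overlap was found, reads of the *Dbp* end cannot be assigned with certainty where strand was not used in counting. *Sphk2* was at 18.9 to 22.7 CPM in controls and at 21.2 to 22.9 CPM in *Rbfox2*-/- retinas, with a log2 fold change of 0.14 of the opposite sign to *Dbp*.

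*Tef* (chromosome 15, 81802421 to 81826863, plus strand), with 1 E-box before each start, was below every control in 3 of 4 *Rbfox2*-/- retinas. Its level was 287.4 CPM in M833, 254 in M894, 286.7 in M896 and 301 in M898. In the *Rbfox2*-/- retinas it was 237 CPM in M909, 267.5 in M902, 238 in M901 and 246 in M893. Only M902 lay within the range of the controls. The mean was 282 ± 19.8 CPM (SD, n = 4) in controls and 247 ± 14.2 CPM (SD, n = 4) in *Rbfox2*-/- retinas, a log2 fold change of -0.19 (standard error 0.06, 95% interval -0.32 to -0.06, adjusted p = 0.242 in edgeR's quasi-likelihood fit). By DESeq2 the adjusted p of *Tef* was 0.0521. *Tef* lies on the same chromosome as *Rbfox2*, 4.5 Mb away.

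*Hlf* (chromosome 11, 90336536 to 90390895, minus strand), the gene with the cAMP response element, was at 315 CPM in M833, 273.5 in M894, 304.8 in M896 and 304.1 in M898. It was at 259 CPM in M909, 279.3 in M902, 276.5 in M901 and 279.4 in M893. The *Rbfox2*-/- retinas lay below 3 of the controls and, with the exception of M909, above M894. The mean was 299 ± 17.9 CPM (SD, n = 4) in controls and 274 ± 9.76 CPM (SD, n = 4) in *Rbfox2*-/- retinas, a log2 fold change of -0.13 (standard error 0.05, 95% interval -0.24 to -0.02, adjusted p = 0.313 in edgeR's quasi-likelihood fit). Summed over the 3 activators, the level was 667 to 807 CPM in controls and 638 to 710.5 CPM in *Rbfox2*-/- retinas. The sums overlapped, again because of control M894. With M901 and M902 left out, *Dbp*, *Tef* and *Hlf* had log2 fold changes of -0.34, -0.23 and -0.16 (adjusted p = 0.776, 0.660 and 0.809 from edgeR). These log2 fold changes were no closer to 0 than with all mice. Without control M894 they were -0.38, -0.24 and -0.17, with adjusted p of 0.113, 0.169 and 0.217 from edgeR.

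*Nfil3* (chromosome 13, 52967209 to 52981073, minus strand), which competes with the PAR bZIP activators for the D-box and represses from it, was the 1 gene of the 8 with a positive log2 fold change. It was at 14.0 CPM in M833, 16.6 in M894, 14.5 in M896 and 15 in M898, and at 14.5 CPM in M909, 15.1 in M902, 16.0 in M901 and 17.0 in M893. The groups overlapped over nearly the whole range, with only M893 above every control. The log2 fold change was 0.06 (standard error 0.07, 95% interval -0.09 to 0.21, adjusted p = 0.734 in edgeR's quasi-likelihood fit), so that a difference of the size seen in *Tef* lies outside this interval on the lower side.

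The Rev-erb genes encode nuclear receptors that bind heme and recruit the NCoR and HDAC3 corepressor complex. *Nr1d1* (chromosome 11, 98767932 to 98775333, minus strand) was at 311 CPM in M833, 274.5 in M894, 308.3 in M896 and 300.2 in M898. It was at 307.7 CPM in M909, 293 in M902, 283 in M901 and 285 in M893. Every *Rbfox2*-/- retina lay within the range of the controls. The log2 fold change was -0.03 (standard error 0.05, 95% interval -0.14 to 0.08, adjusted p = 0.825 in edgeR's quasi-likelihood fit). The end of *Nr1d1* overlaps the end of *Thra*, a thyroid hormone receptor gene on the other strand, over 263 of its 3077 exon bases (8.5%). *Thra* was at 256 to 275.5 CPM in controls and 261 to 276.1 CPM in *Rbfox2*-/- retinas.

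*Nr1d2* (chromosome 14, 18204054 to 18239127, minus strand), the paralog with the same DNA element, was at 224 CPM in M833, 187.1 in M894, 208 in M896 and 205.4 in M898, and at 203 CPM in M909, 204.8 in M902, 184 in M901 and 187.0 in M893. M893 and M901 lay at or just below M894, and the other *Rbfox2*-/- retinas just below the remaining controls. The log2 fold change of *Nr1d2* was -0.08 (standard error 0.06, 95% interval -0.21 to 0.05, adjusted p = 0.569 in edgeR's quasi-likelihood fit). *Rora* (chromosome 9, 68653786 to 69388246, plus strand), whose product activates from the element that REV-ERB proteins repress, was at 393.5 CPM in M833, 362.3 in M894, 362.4 in M896 and 343.4 in M898. In the *Rbfox2*-/- retinas it was at 406 CPM in M909, 343.8 in M902, 360 in M901 and 335 in M893. The lowest and the highest of the 8 values were both from *Rbfox2*-/- retinas. The log2 fold change of *Rora* was -0.02 (standard error 0.06, 95% interval -0.16 to 0.13, adjusted p = 0.936 in edgeR's quasi-likelihood fit), and its sign turned without M901 and M902 (0.017).

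**Figure D2:**
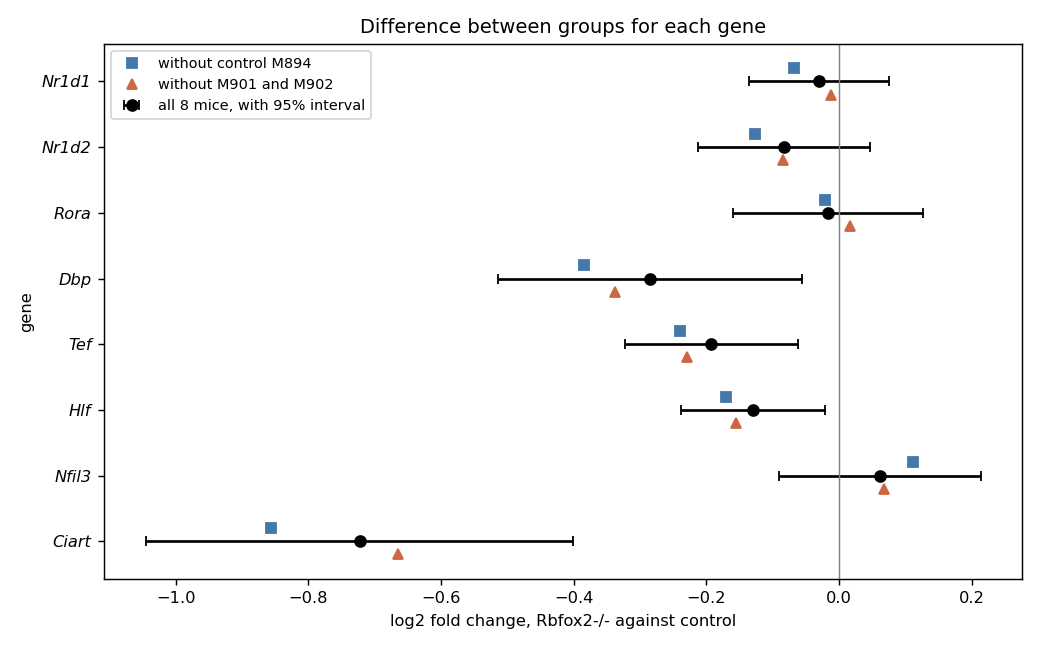
Log2 fold change of each gene, *Rbfox2*-/- against control (horizontal axis), for all 8 mice with its 95% interval (black) and without control M894 (squares) or without M901 and M902 (triangles). The intervals of *Ciart*, *Dbp*, *Tef* and *Hlf* lie below 0, those of the other 4 genes include 0, and leaving out M894 moves every gene away from 0.

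The place of control M894 was alike in several of the 8 genes, while the highest control was M833 in 4 genes and M898 in 3. How often M894 was the lowest control over all genes tested was not counted. Control M894 was the lowest control in 6 of the 8 genes (*Nr1d1*, *Nr1d2*, *Dbp*, *Tef*, *Hlf* and *Ciart*) and the highest in *Nfil3*. Relative to the mean of the 4 controls on the log2 scale, M894 was at -0.33 for *Dbp*, -0.15 for *Tef*, -0.13 for *Hlf* and -0.47 for *Ciart*, and the *Rbfox2*-/- retinas were at -0.36 to -0.10, -0.25 to -0.07, -0.21 to -0.10 and -0.90 to -0.62. M894 was thus within the range of the *Rbfox2*-/- retinas in *Dbp*, *Tef* and *Hlf*, lay between the groups in *Ciart* and was below every other retina in *Nr1d1*. M894 had *Rbfox2* at 149.8 CPM, inside the control range, and a time of dissection per mouse is not given in the sources used here. *Ciart* and *Dbp* were also the most variable between control mice, with a coefficient of variation of 21.5% and 15.1%, and the other 6 genes had 5.56% to 7.40%. Counting error was at most 2.72% of the count in any library for any of the 8 genes, below this spread.

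**Figure D3:**
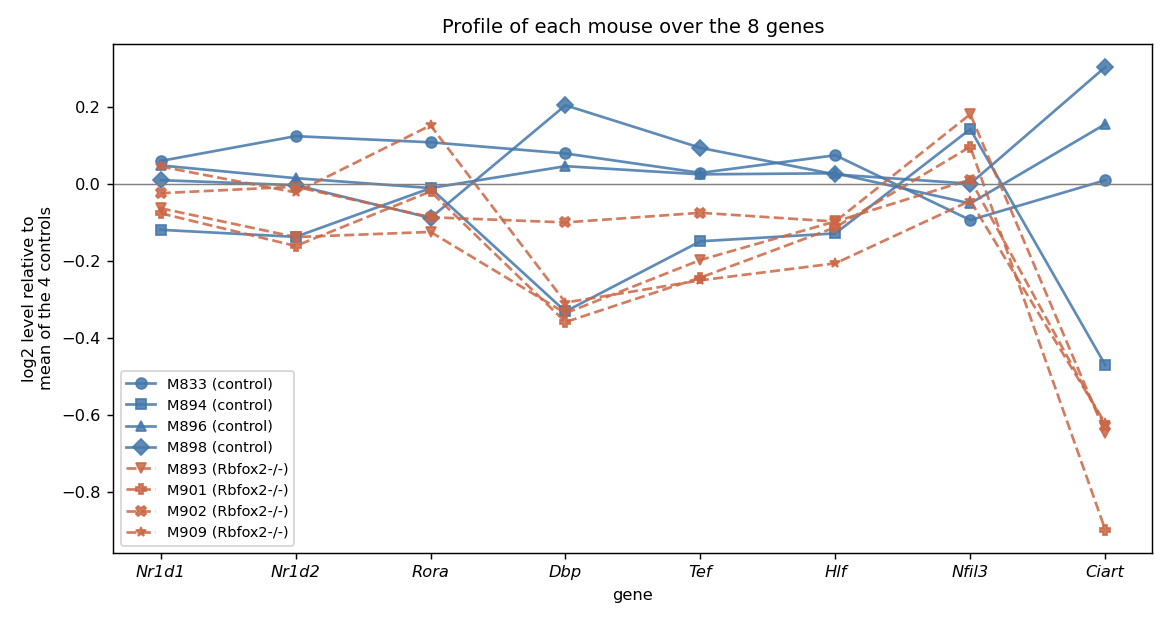
Log2 level of each gene relative to the mean of the 4 controls (vertical axis), 1 line per mouse, solid for controls and dashed for *Rbfox2*-/- retinas. Control M894 follows the *Rbfox2*-/- retinas in *Dbp*, *Tef* and *Hlf* and lies between the groups in *Ciart* at -0.47.

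For levels between genes, the deposited FPKM (fragments scaled for gene length and library size) were used without a test. In controls *Nr1d1* was highest with 108.5 ± 5.45 FPKM (SD, n = 4), followed by *Dbp* with 106 ± 16.0, *Tef* with 68.4 ± 4.85, *Hlf* with 53.1 ± 2.84, *Nr1d2* with 44.7 ± 2.83 and *Rora* with 33.8 ± 1.45. *Ciart* with 9.72 ± 2.13 FPKM and *Nfil3* with 7.58 ± 0.621 FPKM were far lower. The ranges over the 4 controls overlapped between *Nr1d1* and *Dbp* and between *Ciart* and *Nfil3*, and between no other neighbours. In *Rbfox2*-/- retinas the order of the last 2 was the other way round, with *Ciart* at 5.02 to 6.12 FPKM and *Nfil3* at 7.25 to 8.60 FPKM, and *Dbp* at 80.5 to 96.3 FPKM no longer overlapped *Nr1d1* at 101 to 110.6 FPKM. The retina thus held much more transcript per length of the 3 D-box activators than of the D-box repressor *Nfil3* in every library.

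**Figure D4:**
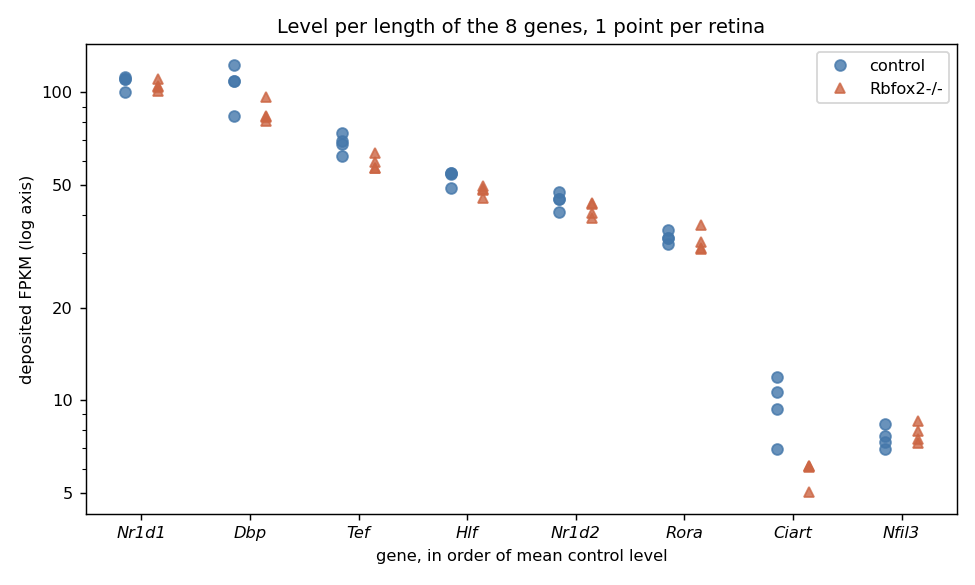
Deposited FPKM (vertical log axis) of the 8 genes in order of their mean control level, 1 point per retina, circles for control and triangles for *Rbfox2*-/-. *Nr1d1* and *Dbp* lead and *Ciart* and *Nfil3* are lowest, and *Ciart* lies below *Nfil3* in all *Rbfox2*-/- retinas.

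Around the 8 genes, 29 other clock genes from 7 lists were read from the same fit. These lists, like the 8 genes, were chosen with earlier results of these data known. Their counts beside the shares of all genes are therefore a description and not a test. By edgeR's quasi-likelihood test and by limma-voom 0 of them passed the adjusted threshold, by DESeq2 5 and by the likelihood ratio test 3, where these tools passed 465 and 164 of all genes tested. At an unadjusted p under 0.05, 6 were lower and 1 was higher, against 6.87% and 6.42% of all genes tested. Of the 7 E-box clock genes, the repressors of the core loop, all had negative log2 fold changes with a median of -0.16, 5 had p under 0.05, and in 3 the groups did not overlap, where 49.3% of all genes tested had negative log2 fold changes, 6.87% were lower at p under 0.05 and 3.39% lay lower without overlap. *Per2* was at 41.0 to 50.2 CPM in controls and 31.4 to 40.1 CPM in *Rbfox2*-/- retinas (log2 fold change -0.43, standard error 0.09, adjusted p = 0.116 by the same edgeR test). *Per1*, a *Per* gene that light can induce, was at 133 to 146 CPM and 111 to 127 CPM (log2 fold change -0.26, adjusted p = 0.0853 by the same edgeR test). *Cry2* was at 169 to 185 CPM and 153 to 164 CPM (log2 fold change -0.16, adjusted p = 0.181 by the same edgeR test). These 3 separated the groups in the same direction as *Ciart*, while *Bhlhe41* (-0.19), *Cry1* (-0.16), *Per3* (-0.13) and *Bhlhe40* (-0.11) overlapped.

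The targets of the Rev-erb and Ror genes had log2 fold changes of both signs. Of the 4 clock activators and paralogs, all had positive log2 fold changes with a median of 0.09, where 8509 of all 16797 genes tested had positive ones. *Arntl2* (0.14), *Clock* (0.05) and *Npas2* (0.02) had intervals that include 0. Only 1 of the 4 had p under 0.05, where 6.42% of all genes tested were higher at that level and 3.64% lay higher without overlap. This was *Arntl*, the textbook target of REV-ERB repression, at 89.6 to 105 CPM in controls and 109 to 121 CPM in *Rbfox2*-/- retinas, with no overlap (log2 fold change 0.24, standard error 0.05, adjusted p = 0.156 in edgeR's quasi-likelihood fit). Of the 5 RORE-driven genes, a list that shares *Arntl*, *Clock* and *Npas2* with the activators and holds *Nfil3*, *Cry1* was lower and *Arntl* higher at p under 0.05. *Rorb*, the paralog of *Rora* needed for photoreceptor development, was at 449 to 497.5 CPM in controls but at 638.5 CPM in M909, 398 in M902, 400.2 in M901 and 289 in M893, a spread that left a log2 fold change of -0.15 with a standard error of 0.19. Without M909 it was -0.40, and without M893 -0.0008. The 8 genes of the Rev-erb corepressor complex and its turnover ranged from -0.09 (*Tbl1xr1*) to 0.04 (*Ncor1*) in log2 fold change, none with p under 0.05, and the 6 clock kinases and ubiquitin ligases had none either.

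The 6 PAR bZIP-driven genes all had negative log2 fold changes with a median of -0.12, and 3 had p under 0.05 (49.3% and 6.87% of all genes tested). *Per1*, *Per2* and *Per3* of this list are also counted among the E-box genes, so the 2 lists are not separate. *Per1* and *Per2* are among the 3 with p under 0.05. The other was *Pdxk*, the pyridoxal kinase that makes the active form of vitamin B6, at 181 to 192 CPM in controls and 166 to 181.4 CPM in *Rbfox2*-/- retinas (log2 fold change -0.12, standard error 0.04, adjusted p = 0.268 by the same edgeR test). *Por*, the reductase of cytochromes P450, and *Alas1*, the first enzyme of heme synthesis, were at -0.02 and -0.04.

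**Figure D5:**
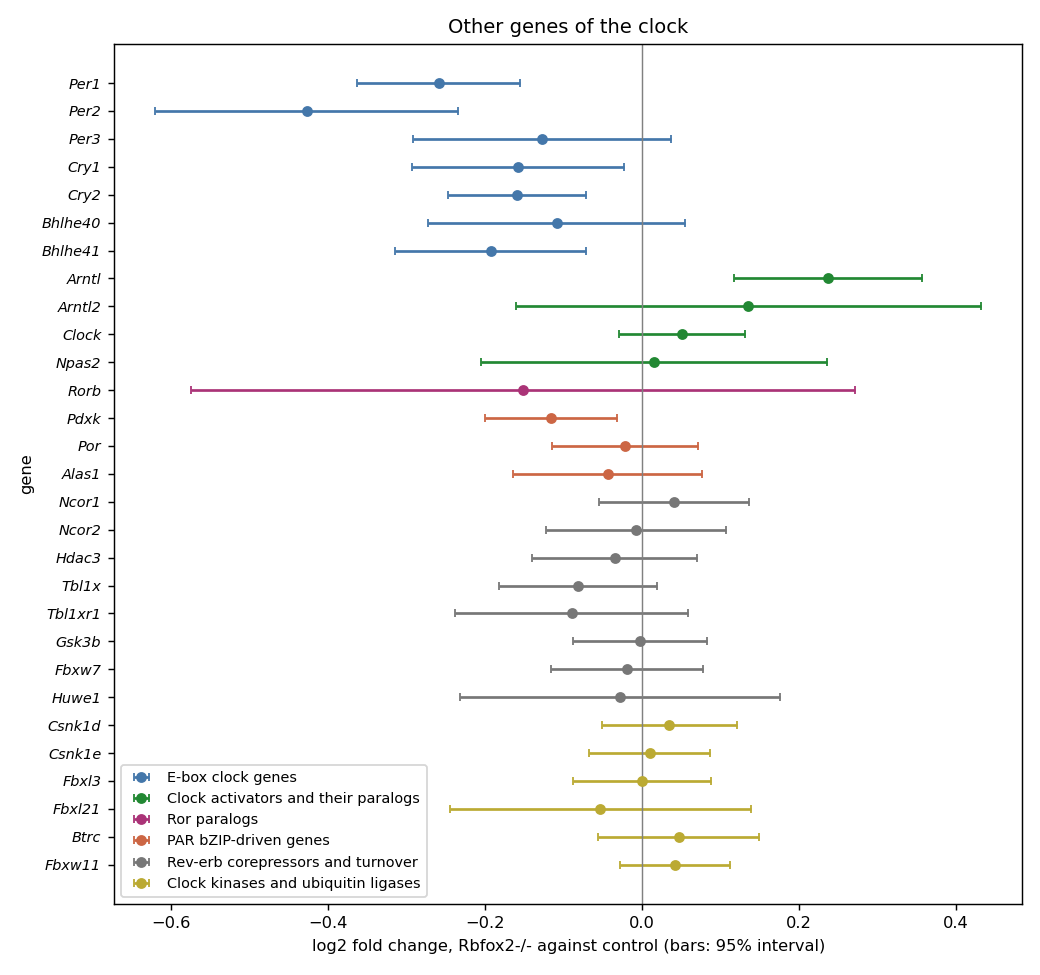
Log2 fold change of the 29 other clock genes, *Rbfox2*-/- against control (horizontal axis), with 95% intervals and 1 colour per list, genes of several lists being drawn once. All 7 E-box clock genes lie below 0 and all 4 activators above 0.

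Markers of several cell types also stood higher or lower in the *Rbfox2*-/- retinas. Of all genes tested, 6.87% were lower and 6.42% higher at p under 0.05 in edgeR's quasi-likelihood test, the test used for these markers. Summed over 4 Muller glia markers, none of which was at 0, the level was 5032 to 5526 CPM in controls and 4605 to 4957 CPM in *Rbfox2*-/- retinas, with no overlap. *Glul* and *Dkk3*, at 3384 and 1189 CPM in controls and so most of this sum, were lower at p under 0.05, while *Rlbp1* (log2 fold change 0.05) and *Slc1a3* (-0.04) were not. Summed over 4 cone markers, none at 0, it was 733 to 740 CPM in controls and 782 to 899 CPM in *Rbfox2*-/- retinas, with *Opn1sw* higher and *Opn1mw* lower at p under 0.05. The 4 ciliary body markers, none at 0, summed to 19.5 to 65.6 CPM and 3.57 to 30.3 CPM, with 2 lower at p under 0.05. The 3 cornea and conjunctiva markers, none at 0, summed to 0.622 to 1.72 CPM and 1.51 to 27.9 CPM, with 2 higher at p under 0.05. The sums of the rod, bipolar, horizontal, amacrine, ganglion cell, microglia, endothelium, pigment epithelium, sclera, blood and lens markers overlapped between the groups. The part of these cell types in the levels of *Ciart*, *Dbp*, *Tef* and *Hlf* was not tested.

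The genes whose deviations from the group means were most like those of the 8 genes over the 8 libraries were found by Pearson's r of log2 CPM among all genes tested, as a description without a test. They were *Btg2* (r = 0.987) and *Egr4* (0.979), both known immediate early genes, for *Dbp*, *Btbd10* (0.987) and *Cops7a* (0.986) for *Tef*, *Rad21* (0.984) and *1190002N15Rik* (0.979) for *Hlf*, and *Uqcrq* (0.984) and *Gbe1* (0.981) for *Ciart*. For *Nfil3* they were *Fli1* (0.989) and *Mta1* (0.977), for *Nr1d1* *Pcdhga3* (0.989) and *Gnpnat1* (0.986), for *Nr1d2* *Yy2* (0.986) and *Tra2b* (0.981), and for *Rora* *Ube4a* (0.991) and *Dync2h1* (0.990). No gene of the 8 was among the nearest to another, and each r is among the highest of 16797, since the genes were chosen by it.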

How the data were processed

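RNA-seq of whole retina from 4 *Rbfox2*-/- and 4 control mice was analysed from 1 table. The authors aligned reads to mm10 (GRCm38) with STAR, kept uniquely mapped reads, and deposited raw counts of fragments per gene from HTSeq. The strand setting is not given in the sources used here, and both RefSeq and Ensembl models are named. The authors also deposited FPKM per library, used here for levels between genes. Deposited log2 fold changes, p-values and FDR of the authors' comparison and their library-size-adjusted signal per mouse were not used.

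Counts were filtered (filterByExpr), normalized by TMM and compared with the quasi-likelihood test of edgeR 4.0.16 (R 4.3.3), with group as the only term. The threshold was an FDR (Benjamini-Hochberg, over 16797 genes) under 0.05. CPM use the normalized library size. Standard errors come from the log2 fold change and the F statistic. At 160630226 or more counts per library, precision is set by the 4 mice per group. The intervals of log2 fold changes were built from the standard errors of this fit and so include variation between mice. Counting error, given as a percentage of the count, does not include it. Nothing states how the samples relate beyond 1 mouse each. All pairs of libraries within a group differed by more than sampling noise.

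The 8 genes and the gene lists were chosen with earlier results of these data known. Named are the 8 genes, list genes where their list is described, the 2 genes most like each of the 8, *Thra*, *Rbfox2*, *Xist* and *Best2*, and *Sphk2*, added later. The alternatives tried were limma-voom (limma 3.58.1), DESeq2 1.42.0, the likelihood ratio test, relative log expression and upper-quartile normalization, no filter, at least 10 counts in every library, each mouse left out, M901 and M902 left out, a term for the libraries with high *Xist*, and 1 surrogate variable (sva 3.50.0). Fits were tested on simulated data. Positions are from GENCODE and promoters from RefSeq (27025 symbols). Protein sequences and 5 blood and lens markers were not analysed here, and 1 gene of the lists and the name of 1 transgene are not reported here.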

Additional observations from a re-analysis of the deposited data

Results flagged for a closer look

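Within the groups of 4 mice, 2 of the 16 sets of values of the 8 genes had a sample far from the others by Dixon's ratio (the gap to the nearest sample divided by the range), and chance gives about 1 in 20. *Hlf* in *Rbfox2*-/- mouse M909 was at 259 CPM with the next mouse at 276.5 CPM, a ratio of 0.855. *Ciart* in *Rbfox2*-/- mouse M901 was at 7.09 CPM with the next mouse at 8.45 CPM, a ratio of 0.903. Without M901 the log2 fold change of *Ciart* was -0.66, against -0.72 with all mice.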

How the results depend on the processing

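Under 18 alternatives, 136 of the 144 values of the 8 genes kept their direction and their side of the FDR threshold, 3 passed it and 5 changed sign. Those that passed were *Ciart*, at -0.72 with DESeq2 (adjusted p = 6.78e-05), at -0.72 with the likelihood ratio test of edgeR (adjusted p = 0.00189) and at -0.86 without control M894 (adjusted p = 0.0199), so that the number of the 8 genes past the threshold was 1 with DESeq2 and 1 with the likelihood ratio test and 0 to 1 with mice left out. Over the other settings the FDR of *Ciart* reached 0.606, and with each mouse left out its log2 fold change was -0.86 to -0.62. *Rora* changed sign without M901 and M902 (0.017), with a term for high *Xist* (0.019) and over mice left out (-0.077 to 0.018), never past the threshold. The other clock genes past it were 5 with DESeq2, 3 with the likelihood ratio test and 0 to 1 with mice left out (1 without M902). Of all genes tested, 11 passed, against 465 with DESeq2, 164 with the likelihood ratio test, 1 without M901 and M902, 4 with the *Xist* term, 5 with 1 surrogate variable and 5 to 35 with mice left out. Of 324 values of 18 other named genes, 9 newly passed the threshold and 4 changed sign, namely *Por* (-0.047 to 0.013 over mice left out), *Alas1* (-0.070 to 0.0073) and *Thra* (-0.038 to 0.00038, and 0.0089 with the surrogate variable). The cause of these differences was not tested. No paired analysis was possible because the groups share no replicate numbers.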
